A study of Mus musculus with 6 samples.

Results

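Transcripts of 32 genes of mitochondrial fatty acid oxidation, ketone body metabolism and propionyl-CoA use were compared between cultured primary brown adipocytes of wild-type (WT) and Ucp1-KO mice. The genes were taken from a fixed list of symbols by pathway role, and each was read from its most abundant RefSeq transcript. All 32 were found among 22466 genes with a RefSeq row in the table. Different roles were distinguished, namely the carnitine shuttle with 7 genes, the acyl-CoA dehydrogenases with 7, electron transfer with 3, the remaining steps of the β-oxidation cycle with 5, the auxiliary enzymes for unsaturated fatty acids with 4, ketone bodies with 3 and propionyl-CoA with 3.

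The cells were stromal-vascular cells of interscapular brown adipose tissue, isolated from male 129SvEvS1 mice of both genotypes at 5 to 6 wk of age and differentiated in vitro. In all, 3 cultures of each genotype, labelled 10 to 12 for WT and 13 to 15 for Ucp1-KO, were sequenced. All cultures received the same adipogenic medium, which contained insulin, T3 and rosiglitazone, an agonist of the nuclear receptor PPARγ. Ucp1-KO mice lack functional uncoupling protein 1, the carrier that lets brown fat mitochondria turn fuel into heat. They retain a remnant Ucp1 transcript.

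Long-chain fatty acids enter mitochondria as carnitine esters, and this transfer is the regulated gate of their oxidation. In the matrix, β-oxidation shortens the acyl-CoA by repeated cycles of dehydrogenation, hydration, a second dehydrogenation and thiolytic cleavage, and electrons from the first dehydrogenation reach the respiratory chain through electron transfer flavoprotein. Brown adipose tissue is rich in these enzymes, because fatty acids are both its main fuel and the activators of UCP1. Ketone bodies are an alternative fuel that many tissues outside the liver convert back to acetyl-CoA, and propionyl-CoA from odd-chain fatty acids and branched amino acids is carried into the citric acid cycle.

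Depth was similar across the 6 cultures, with 14989598 to 17727641 reads per culture recovered from the steps of the deposited values. Ucp1 was at 1775, 981 and 1157 RPKM in the WT cultures and at 307, 409 and 398 RPKM in the Ucp1-KO cultures, with no overlap and in the direction of the labels. RPKM are reads scaled by the length of the transcript and the size of the library, so that levels can be compared between genes. The 9 adipocyte markers summed to 30070 to 33140 RPKM, most of which was Fabp4 at 26399 to 29312 RPKM. Of the 8 tested, 6 had a log2 difference above 0, against 49.6% of all transcripts tested, and 2 below. Cfd, the adipocyte-secreted protease adipsin, was at 137, 208 and 120 RPKM in WT and at 106, 106 and 67.4 RPKM in Ucp1-KO, without overlap (log2 difference −0.72, unadjusted p = 0.027, adjusted p = 0.868, limma), and the lipid droplet gene Cidec ranged from 769 to 1419 RPKM. The 12 stromal and preadipocyte markers summed to 1340, 2568 and 1703 RPKM in WT and to 1640, 1429 and 1035 RPKM in Ucp1-KO. All 11 of them that were tested had a log2 difference below 0, while 49.6% of all transcripts were above 0. Markers measured in the same 6 cultures are not independent of each other. Of these markers, Dcn (log2 difference −0.85, unadjusted p = 0.0051, limma) and Fn1 (−0.70, unadjusted p = 0.031, limma) had an unadjusted p under 0.05. Over all transcripts 3.24% were lower at that threshold. Dcn and Pdgfra lay below WT without overlap, against 5.15% of all transcripts. The 9 macrophage markers reached 1045 RPKM in Ucp1-KO culture 14 and 46.2 to 252 RPKM in the other cultures, with 8 above 0 and 1 below. The 7 endothelial markers summed to 2.64 to 35.4 RPKM, and the 5 tested were below 0. The 12 skeletal muscle markers summed to 7.04 to 24.9 RPKM, and Ckm, Myh1, Myh2, Myh4, Tnnt3, Myod1 and Myog were listed at 0 in at least 1 culture. Of the 6 tested, 4 were above 0 and 2 below. Tnnt3, at 1.99, 0.117 and 1.34 RPKM in Ucp1-KO and 0 to 0.118 RPKM in WT, had an unadjusted p of 0.039 (limma), with overlap. Over all transcripts 2.30% were called higher. The part of these cells in the differences given below was not tested. In bulk cultures, fewer cells of a type and less RNA per cell cannot be told apart.

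**Figure D1:**
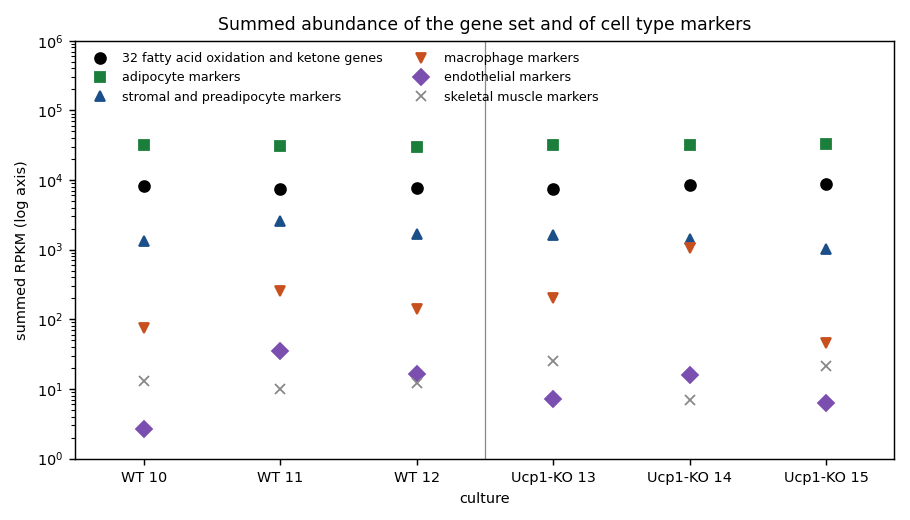
Summed RPKM (log axis) of the 32 fatty acid oxidation and ketone genes and of 5 lists of cell type markers in each of the 6 cultures, WT left and Ucp1-KO right of the line. The gene set stayed between 7331 and 8816 RPKM, while the macrophage markers ranged from 46.2 to 1045 RPKM.

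No difference between the genotypes passed the test across all transcripts in any of these genes. Of the 31 genes tested, 0 passed an adjusted p of 0.05 (limma on log2(RPKM + 1), Benjamini-Hochberg over 16865 transcripts), and over all transcripts 0, or 0%, passed. Ucp1 itself, with a log2 difference of −1.78 (unadjusted p = 0.00016, limma), had an adjusted p of 0.868, so that a count of 0 does not show that the genes did not differ. The smallest adjusted p among them was 0.868. At an unadjusted p under 0.05 (limma), 2 of the 31 genes were called against 5.54% of all transcripts tested. Both of them, Acad11 and Slc22a5, had higher values in Ucp1-KO, where 2.30% of all transcripts were called in that direction, and 0 were lower, where 3.24% were called. In 3 genes the 3 Ucp1-KO cultures did not overlap the 3 WT cultures, compared with 11.2% of all transcripts. These were Acad11 and Slc22a5 above WT (6.04% of all transcripts) and Oxct1 below (5.15%). The median log2 difference, Ucp1-KO minus WT, was 0.06 over the 31 genes and −0.0016 over all transcripts, and 23 of the 31 were above 0 against 49.6% of all transcripts. Since the genes were measured in the same 6 cultures, their directions are not independent of each other.

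The interval of a gene limits how large a difference on log2(RPKM + 1) could have been missed. For all 31 genes the 95% interval of the log2 difference lay within −1 and 1, and for 26 of them within 1.5-fold in either direction. Each interval is for 1 gene, and they do not hold jointly at 95%. The scale understates differences of low genes, as for Cpt1c, at −0.31 here and −0.45 with 0.1 RPKM added in place of 1. The single differences ran from −0.31 for Cpt1c to 0.36 for Acad11, and 12 genes differed by less than 0.1 on the log2 scale. Bdh1 was not tested, because its mean of 0.358 RPKM was under the minimum of 0.5 RPKM, whereas the next gene above that limit, Cpt1c, had a mean of 2.16 RPKM.

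**Figure D2:**
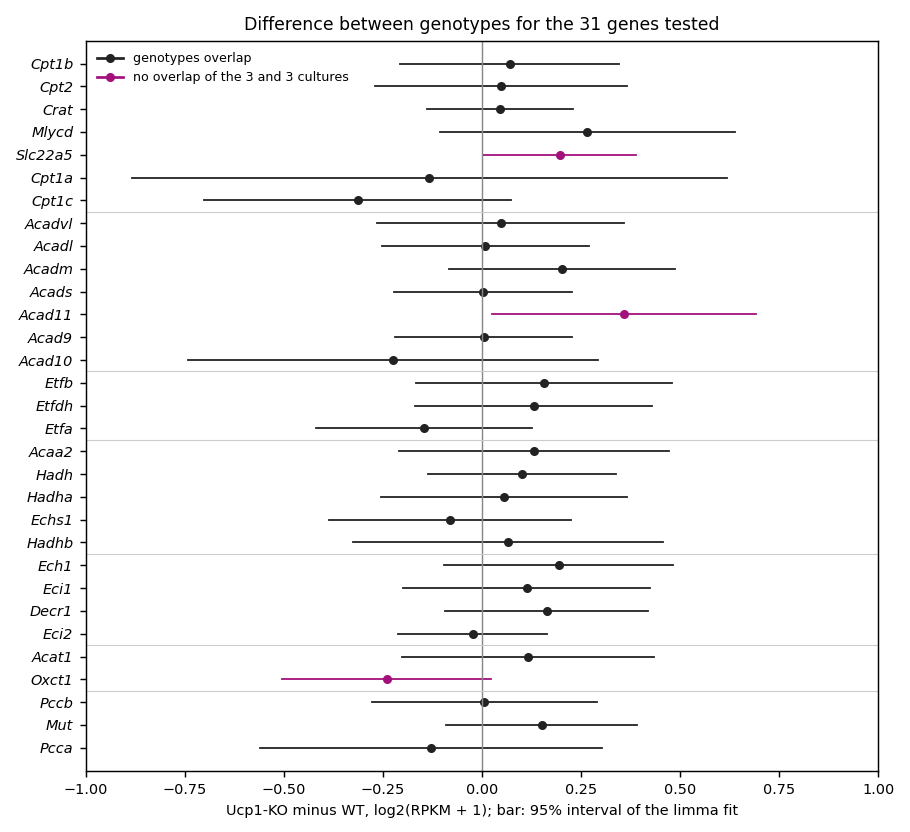
Log2 difference (Ucp1-KO minus WT, on log2(RPKM + 1)) with its 95% interval from limma for each of the 31 genes tested, ordered by role and level. Acad11, Slc22a5 and Oxct1 are coloured as the genes without overlap between 3 and 3 cultures, and all intervals lie between −1 and 1.

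The 32 genes were abundant as a group. Their RPKM values summed to 8095, 7420 and 7557 in the WT cultures and to 7331, 8388 and 8816 in the Ucp1-KO cultures, or 7691 ± 357 and 8178 ± 764 (SD, n = 3). The Ucp1-KO range enclosed the WT range. They took 1.46 to 1.73% of the reads of a culture. The mean over 6 cultures exceeded 100 RPKM for 22 genes, was at least 400 RPKM for 8 and was under 50 RPKM for 7.

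**Figure D3:**
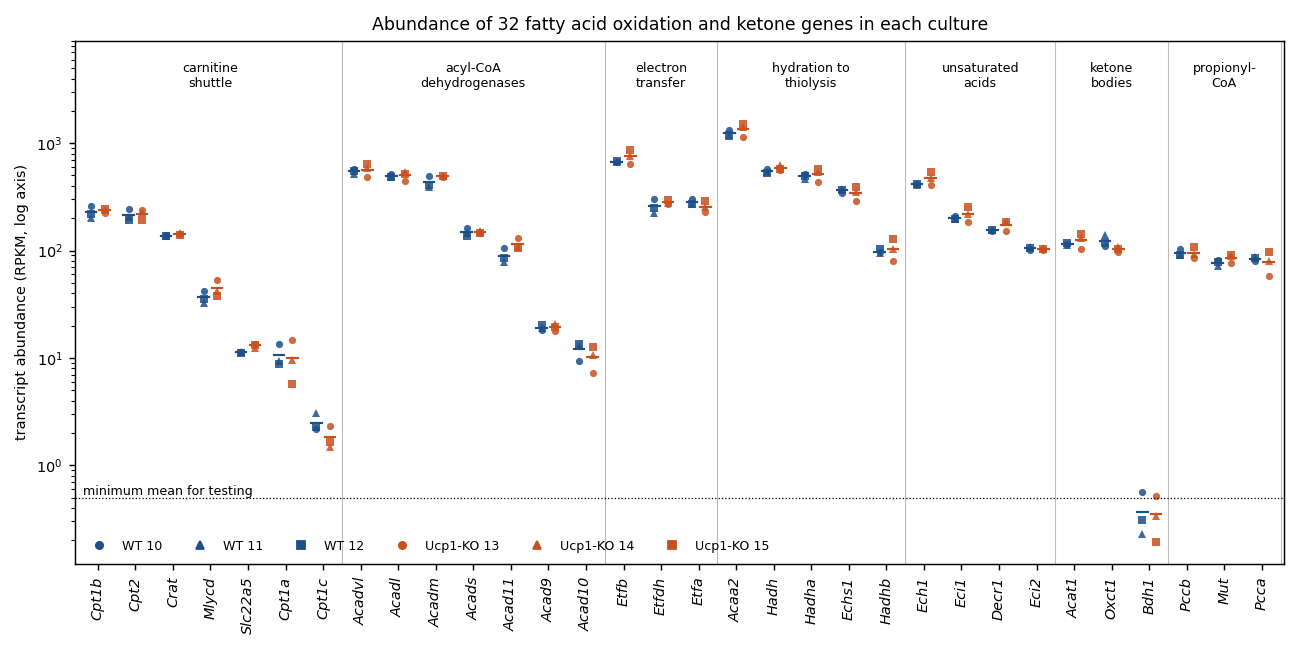
RPKM (log axis) of the 32 genes in each culture, grouped by role and ordered by mean, with WT cultures in blue, Ucp1-KO cultures in orange and a line at each genotype mean (n = 3). Levels run from Acaa2 at a 6-culture mean of 1294 RPKM down to Bdh1 at 0.358 RPKM, and the genotypes overlap in 29 of 32 genes.

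In the carnitine shuttle, the isoform of carnitine palmitoyltransferase 1 known from muscle and brown fat, Cpt1b, was the predominant one. This outer membrane enzyme makes the acylcarnitines that enter mitochondria and is the target of inhibition by malonyl-CoA. Cpt1b (chr15:89416405-89425862, minus strand, GRCm38) was at 258, 200.5 and 221 RPKM in WT and at 224, 239 and 246 RPKM in Ucp1-KO. The Ucp1-KO cultures lay inside the WT range, and the log2 difference was 0.07 (95% interval −0.21 to 0.35). A readthrough gene on the same strand covers 81.4% of its exon bases, so that reads of the 2 annotations cannot be separated in these values. The liver isoform Cpt1a was at 13.6, 9.40 and 8.72 RPKM in WT and at 14.8, 9.52 and 5.71 RPKM in Ucp1-KO. Its highest and lowest values were both Ucp1-KO cultures, which left the widest interval of the set, −0.88 to 0.62. Cpt1c, the isoform known from brain, was lowest of the 3 at 2.496 ± 0.50 RPKM in WT cultures and 1.82 ± 0.45 RPKM in Ucp1-KO (SD, n = 3), from 69 to 143 reads per culture.

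The ratio of Cpt1b to Cpt1a was 19.0, 21.3 and 25.3 in WT and 15.2, 25.1 and 43.1 in Ucp1-KO. Cpt1b was the more abundant per length in each culture. No difference in this ratio passed a two-sided exact permutation test (p = 0.80, adjusted p = 1 over 4 ratios). With 3 cultures against 3, this test cannot give a p under 0.10.

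The other genes of the shuttle overlapped between genotypes, except for the carnitine transporter. Cpt2, the inner membrane enzyme that returns the acyl group to CoA, was at 214 ± 27.9 RPKM in WT cultures and 221 ± 24.4 RPKM in Ucp1-KO (SD, n = 3). Crat, which exchanges short acyl groups between carnitine and CoA, was the most even gene of the shuttle at 138 ± 2.01 and 142 ± 3.30 RPKM. Mlycd, which degrades malonyl-CoA, was at 42.0, 32.8 and 35.0 RPKM in WT and at 53.6, 42.4 and 37.3 RPKM in Ucp1-KO. WT culture 10 lay within the Ucp1-KO values of Mlycd, and the interval of its difference was −0.11 to 0.64.

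Slc22a5 encodes the carnitine transporter of the plasma membrane. It was at 11.3, 11.4 and 11.1 RPKM in WT and at 13.4, 12.4 and 13.3 RPKM in Ucp1-KO. The WT cultures were close to each other and all 3 Ucp1-KO cultures were above them, with a log2 difference of 0.20 (SE 0.08, 95% interval 0.0014 to 0.39). The unadjusted p was 0.049 and the adjusted p was 0.868 (limma), and the two-sided exact permutation p was 0.10, the smallest possible. The unadjusted p (limma) was 0.075 to 0.14 with any 1 culture left out, 0.057 with median-of-ratios scaling and 0.072 over all annotations, whereas it was 0.0036 with no minimum RPKM, 0.044 with a minimum of 2 RPKM and 0.036 with limma-voom. These values rest on 589 to 673 reads per culture. Of the 3013 stretches of 50 bases in its transcript, 27.1% also occur at another locus, mostly in its neighbour Slc22a21, and reads from these cannot be assigned uniquely.

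The acyl-CoA dehydrogenases start each cycle and divide the acyl chains by length, and here the enzymes for very long, long and medium chains were more abundant than that for short chains. The very-long-chain enzyme Acadvl (chr11:70010183-70015428, minus strand) was the most abundant, at 570.3, 519 and 547 RPKM in WT and at 479, 586 and 636 RPKM in Ucp1-KO. Its lowest and highest values were both Ucp1-KO cultures (log2 difference 0.05, 95% interval −0.27 to 0.36). On the opposite strand, Dvl2 overlaps 42.9% of the Acadvl exon bases, and the library type does not keep the strand, but Dvl2 itself had a mean of 2.83 RPKM. The long-chain enzyme Acadl was at 497 ± 19.7 RPKM in WT cultures and 501 ± 47.5 RPKM in Ucp1-KO, the medium-chain enzyme Acadm at 431 ± 58.3 and 493 ± 3.85 RPKM, and the short-chain enzyme Acads at 148 ± 12.4 and 148 ± 3.80 RPKM (SD, n = 3). Acad9, which is also an assembly factor of complex I, was at 19.1 ± 1.17 and 19.2 ± 1.37 RPKM. Acad10, a less studied relative, was at 11.97 ± 2.25 and 10.2 ± 2.77 RPKM, and 21.8% of its 50-base stretches are shared with other loci, mostly Acad12.

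The log2 difference of Acad11 was the highest of the 31 genes tested. Acad11 is a dehydrogenase of long and very long acyl chains. Its values (chr9:104063724-104127656, plus strand) were 105, 78.4 and 85.3 RPKM in WT cultures and 130.4, 107 and 106 RPKM in Ucp1-KO. All 3 Ucp1-KO cultures were above all WT cultures, but the lowest of them, at 106 RPKM, was close to WT culture 10 at 105 RPKM. With median-of-ratios scaling the order was lost, at 110.2 RPKM for WT culture 10 against 104.8 RPKM for Ucp1-KO culture 14, and the unadjusted p was 0.068 (limma). The log2 difference was 0.36 (SE 0.14, 95% interval 0.02 to 0.69), with an unadjusted p of 0.039, an adjusted p of 0.868 (limma) and an exact permutation p of 0.10. The unadjusted p (limma) was 0.010 without WT culture 10 and 0.042 without Ucp1-KO culture 15, 0.054 to 0.13 without any other 1 culture, 0.059 with no minimum RPKM and 0.034 with limma-voom. Within the Ucp1-KO cultures Acad11 was highest in culture 13, in which 16 of the other genes had their lowest value.

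Electron transfer flavoprotein is a heterodimer of the products of Etfa and Etfb, and its ubiquinone oxidoreductase is encoded by Etfdh. Etfb (chr7:43444072-43457800, plus strand) was at 669, 661 and 681 RPKM in WT and at 634, 759.8 and 865 RPKM in Ucp1-KO. The WT cultures were within a narrow range, and the Ucp1-KO cultures lay on both sides of it. Etfa was at 301, 272 and 274 RPKM in WT and at 228, 252 and 287 RPKM in Ucp1-KO. Etfdh was at 259 ± 38.9 RPKM in WT cultures and 282 ± 11.3 RPKM in Ucp1-KO (SD, n = 3). None of the 3 passed, with adjusted p-values of 0.879 to 0.897 (limma).

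The ratio of the 2 subunits was the only one of 4 ratios without overlap between genotypes. Etfa to Etfb was 0.450, 0.412 and 0.402 in the WT cultures and 0.359, 0.332 and 0.332 in the Ucp1-KO cultures, or 0.421 ± 0.025 and 0.341 ± 0.016 (SD, n = 3). On the log2 scale this ratio differed by −0.30. The two-sided exact permutation p was 0.10, the smallest that 3 cultures against 3 can give, and the adjusted p over the 4 ratios was 0.40. The difference was not past the threshold. Another protein-coding annotation on the same strand covers part of the Etfb exons, which have 58.2% of their bases in overlaps.

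**Figure D4:**
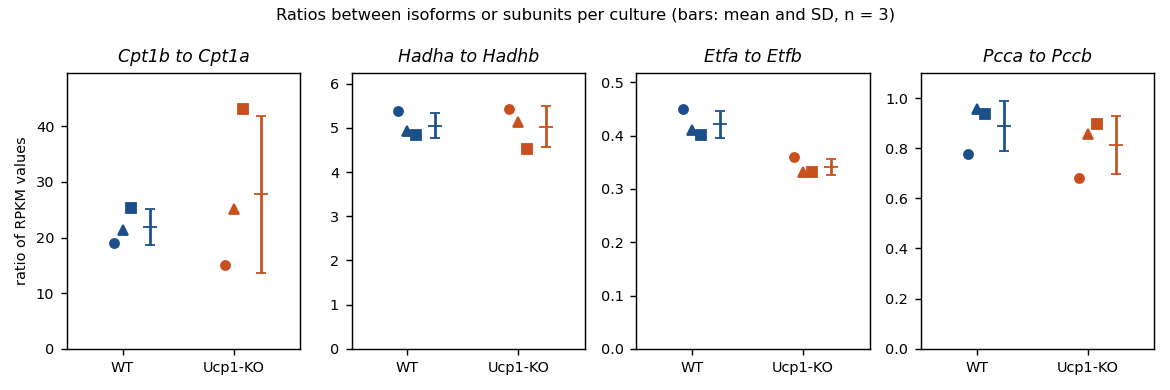
Ratios of RPKM values per culture for 4 pairs of isoforms or subunits, with circles, triangles and squares for cultures 10, 11 and 12 in WT (blue) and 13, 14 and 15 in Ucp1-KO (orange), and mean ± SD (n = 3) beside them. Etfa to Etfb lies at 0.402 to 0.450 in WT and at 0.332 to 0.359 in Ucp1-KO, while the other 3 ratios overlap.

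The subunits of the mitochondrial trifunctional protein, which hydrates, dehydrogenates and cleaves long acyl chains, are encoded head to head. Hadha starts at base 30154980 of chromosome 5 and runs on the minus strand, and Hadhb starts at base 30155253 and runs on the plus strand (GRCm38.p6), 273 bases away. Because both genes share the stretch between these starts, it is shown here from RefSeq, as chr5:30154981-30155252 on the plus strand, with the 2 GC boxes (GGGCGG) in capitals.
Hadha to Hadhb: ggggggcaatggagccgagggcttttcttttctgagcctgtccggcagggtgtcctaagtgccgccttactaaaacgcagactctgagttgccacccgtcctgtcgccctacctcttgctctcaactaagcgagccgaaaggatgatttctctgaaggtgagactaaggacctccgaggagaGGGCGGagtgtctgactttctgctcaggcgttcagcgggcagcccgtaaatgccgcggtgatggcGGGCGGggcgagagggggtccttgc
The stretch has a GC content of 60.3%. The GC boxes are at bases 183 to 188 and 248 to 253, both nearer to the Hadhb start.

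Despite this arrangement the 2 genes had unequal levels. Hadha (chr5:30119423-30154980) was at 519, 465 and 497 RPKM in WT and at 437, 536 and 575 RPKM in Ucp1-KO. Hadhb (chr5:30155253-30184593) was at 96.4, 94.1 and 103 RPKM in WT and at 80.5, 104 and 127 RPKM in Ucp1-KO. For both genes, Ucp1-KO culture 13 was the lowest and culture 15 the highest of all 6. The ratio of Hadha to Hadhb was 5.39, 4.94 and 4.83 in WT and 5.43, 5.14 and 4.53 in Ucp1-KO (two-sided exact permutation p = 1). However, 62.9% of the 1984 stretches of 50 bases in the Hadhb transcript also occur elsewhere, mostly in the processed pseudogenes Gm13910 and Gm9108, and only uniquely identified reads had been counted. Counted per unique stretch, Hadhb was at 272 RPKM in place of 101 RPKM, and the ratio over the 6 cultures fell from 5.04 ± 0.35 to 1.87 ± 0.13 (SD). This correction is 1 factor for all cultures and leaves the comparison of the ratio between genotypes as it is.

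The thiolase Acaa2, which ends the cycle for medium chains, was the most abundant of the 32 genes and ranked 12 among all genes of the table. It was at 1327, 1166 and 1204 RPKM in WT and at 1149, 1411 and 1508 RPKM in Ucp1-KO. The lowest and the highest culture were again Ucp1-KO 13 and 15 (log2 difference 0.13, 95% interval −0.21 to 0.47). Hadh, the second dehydrogenase for shorter chains, was at 546 ± 25.9 RPKM in WT cultures and 585 ± 31.3 RPKM in Ucp1-KO, and the hydratase Echs1 was at 363 ± 14.7 and 345 ± 49.8 RPKM (SD, n = 3).

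Unsaturated fatty acids need isomerases and a reductase to move their double bonds. Ech1, a dienoyl-CoA isomerase, was the most abundant of these at 417, 408 and 414 RPKM in WT and at 411, 475 and 539 RPKM in Ucp1-KO. Culture 13 lay among the WT values and the other 2 Ucp1-KO cultures were above them (log2 difference 0.19, 95% interval −0.10 to 0.48). The reductase Decr1 was at 151.4, 156.1 and 156.4 RPKM in WT and at 150.9, 185.5 and 185.6 RPKM in Ucp1-KO, with culture 13 just below WT and the other two above. Eci1 was at 201 ± 6.50 and 219 ± 35.2 RPKM, and Eci2 at 105 ± 3.98 and 103 ± 1.96 RPKM (SD, n = 3).

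Of the 3 ketone body genes, Acat1 and Oxct1 were expressed, and Bdh1, whose product interconverts the ketone bodies, was at a low level. Acat1, the acetoacetyl-CoA thiolase, was at 114, 112 and 118 RPKM in WT and at 102, 131 and 143.5 RPKM in Ucp1-KO. Oxct1, which transfers CoA from succinyl-CoA to acetoacetate and commits ketone bodies to oxidation, was at 111, 139.8 and 117 RPKM in WT and at 97.9, 107 and 104 RPKM in Ucp1-KO. All Ucp1-KO values of Oxct1 (chr15:4026428-4155344, plus strand) were below all WT values, with 111 and 107 RPKM as the nearest pair. The log2 difference was −0.24 (SE 0.11, 95% interval −0.50 to 0.02), with an unadjusted p of 0.068, an adjusted p of 0.868 (limma) and an exact permutation p of 0.10. With 1 culture left out it ran from −0.31 without WT culture 10 (unadjusted p = 0.037, limma) to −0.14 without WT culture 11 (unadjusted p = 0.22, limma). The unadjusted p was 0.048 with median-of-ratios scaling and 0.11 with limma-voom. Bdh1, the 3-hydroxybutyrate dehydrogenase, was at 0.564, 0.231 and 0.308 RPKM in WT and at 0.516, 0.335 and 0.193 RPKM in Ucp1-KO, from 9 to 30 reads per culture. Oxct1 and Acat1 exceeded Bdh1 in every culture.

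Propionyl-CoA carboxylase is made of the products of Pcca and Pccb, and methylmalonyl-CoA mutase of Mut acts later in the same route. Pccb (chr9:100982032-101034940, minus strand) was at 104, 90.6 and 89.9 RPKM in WT and at 85.03, 92.7 and 109 RPKM in Ucp1-KO. Pcca was at 80.7, 86.5 and 84.3 RPKM in WT and at 57.9, 79.6 and 97.4 RPKM in Ucp1-KO, a wider spread than in WT on both sides. Mut was at 77.0 ± 4.60 RPKM in WT cultures and 85.7 ± 7.88 RPKM in Ucp1-KO (SD, n = 3). The ratio of Pcca to Pccb overlapped between genotypes at 0.776 to 0.956 in WT and 0.681 to 0.896 in Ucp1-KO (two-sided exact permutation p = 0.50, adjusted p = 1).

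The Ucp1-KO cultures differed among themselves in a way that many of these genes shared. In 24 of the 32 genes the 3 Ucp1-KO cultures covered a wider log2 range than the 3 WT cultures, compared with 60.3% of all transcripts. Culture 13 had the lowest value of all 6 cultures for 16 of the 31 genes tested, and of all transcripts 24.5% were lowest there. Culture 15 had the highest value for 13 of them, and of all transcripts 23.6% were highest there. Both held for 11 genes, namely Acadvl, Etfb, Hadha, Hadhb, Echs1, Acaa2, Eci1, Decr1, Acat1, Pcca and Pccb, and for 9.11% of all transcripts. The median deviation of the 31 genes from their 6-culture means was −0.10, 0.07 and 0.12 on the log2 scale in Ucp1-KO cultures 13, 14 and 15 and 0.02, −0.08 and −0.06 in WT cultures 10, 11 and 12. With median-of-ratios scaling these medians were −0.057, 0.044 and 0.13 in Ucp1-KO and 0.086, −0.14 and −0.087 in WT, so that culture 15 was still the highest but WT cultures 11 and 12 lay below culture 13. Not all genes had this order, and 4 of them, Cpt1a, Slc22a5, Mlycd and Acad11, were highest in culture 13. Summed stromal and preadipocyte markers were in the opposite order within Ucp1-KO, at 1640, 1429 and 1035 RPKM. The summed adipocyte markers, mostly Fabp4, were at 31520, 31420 and 33140 RPKM. Within Ucp1-KO only Fabp4 was highest in culture 15. All other markers of that list, Adipoq, Plin1, Cidec, Lipe, Pnpla2, Lep, Retn and Cfd, were highest in culture 13. The part of either list in this order was not tested.

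**Figure D5:**
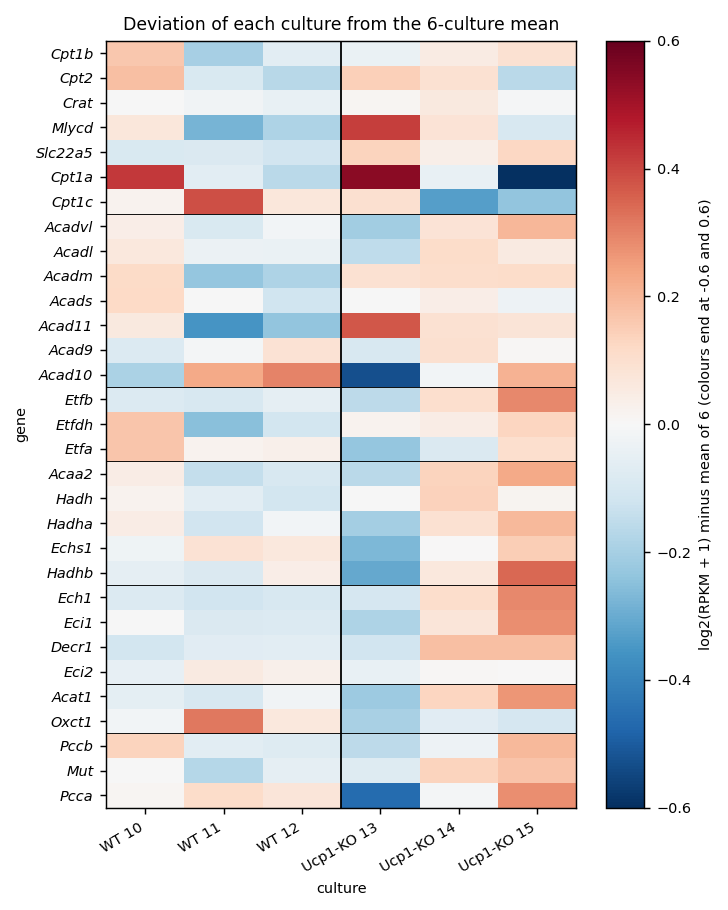
Deviation of each culture from the 6-culture mean on log2(RPKM + 1) for the 31 genes tested, grouped by role, with colours from −0.6 (blue) to 0.6 (red) and a line between WT and Ucp1-KO. Culture 13 is the lowest for 16 genes and culture 15 the highest for 13 of the 31.

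Single cultures moved the counts of genes without overlap. Leaving out Ucp1-KO culture 13 raised the count from 3 to 14 of 31 genes, while 27.8% of all transcripts then did not overlap, and 12 of the 14 were above WT, against 15.2% of all transcripts. With WT culture 10 left out the count was 11, against 32.8% of all transcripts. These cultures were together the 2 lowest of the 6 for 27.2% of all transcripts and 5 of the 32 genes, and the 2 highest for 10.5% and 3 genes. For the 31 genes, culture 10 had the highest median deviation of the WT cultures, 0.02, and culture 13 the lowest of Ucp1-KO, −0.10. Leaving out both therefore favours higher Ucp1-KO values in these genes. This choice, made after these positions had been seen, gave 24 genes, against 49.4% of all transcripts. At an unadjusted p under 0.05 (limma) it gave 9 genes, against 13.6%. No difference between genotypes is concluded from these counts. In each of these cases 0 genes had an adjusted p under 0.05 (limma).

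Promoter sequences were looked at because many of these genes are known targets of PPAR and ERR nuclear receptors and of the nuclear respiratory factor NRF1. RefSeq promoters (GRCm38.p6, 250 bases before to 50 bases after the start) were at hand for 25 of the 32 genes, in 27 entries. Acaa2, Mut, Acat1, Decr1, Cpt1b, Crat and Acad9 had no entry. Searched on both strands, the direct repeat that PPAR binds, which is a pair of AGGTCA with any 1 base between, was in 0 of the 27 promoters, in 0.0396% of all 32851 promoters and in 0.0343% of the promoters of genes tested here. The extended site of ERR, TCAAGGTCA, was in 0 of 27, 0.423% and 0.2655% in the same order. The bare hexamer AGGTCA, which is part of both, was in 25.9%, 16.3% and 12.65%. The NRF1 motif, which is GCGCA and GCGC with any 1 base between, was in 18.5% of the 27, in 4.60% of all promoters and in 10.01% of the promoters of genes tested here. The GC box was in 66.7%, 35.7% and 62.7% in the same order. TATAAA was in 0 of 27, 13.6% and 7.26%. These are matches of letters only, and no binding was measured.

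For each of the 5 genes with the NRF1 motif, 1 stretch is shown in the direction of the gene, with the motif in capitals, because it is the longest motif found in more than 1 of these promoters. Acad10 has another match at −8 from its start, which is not shown. The stretches lie at chr5:121660530-121660569 (minus), chr7:43444046-43444071 (plus), chr3:79628871-79628910 (minus), chr9:101034929-101034968 (minus) and chr11:53891810-53891849 (minus) in this order.
Acad10: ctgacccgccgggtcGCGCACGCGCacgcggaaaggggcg
Etfb: ggtcggtgttgcggcGCGCAGGCGCa
Etfdh: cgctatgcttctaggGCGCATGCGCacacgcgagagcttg
Pccb: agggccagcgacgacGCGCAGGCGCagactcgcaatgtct
Slc22a5: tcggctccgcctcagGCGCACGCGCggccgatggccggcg
The log2 differences of these genes were −0.23, 0.16, 0.13, 0.01 and 0.20, and only Slc22a5 among them had no overlap between genotypes.

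Genes around the set were read from 5 further lists with 87 genes, of which 77 were tested. None passed an adjusted p of 0.05 (limma), 1 was higher and 2 were lower at an unadjusted p under 0.05, against 2.30% and 3.24% of all transcripts, and the median log2 difference was 0.07. Without overlap were 3 above WT (Mmaa, Nudt7 and Acsm3) and 3 below (Aldh9a1, Slc16a1 and Slc16a3), against 6.04% and 5.15% of all transcripts. Among 19 regulators tested, 13 were above 0 and none had a non-overlapping order. Pparg, the receptor that rosiglitazone binds, was at 122 ± 4.62 RPKM in WT cultures and 135 ± 8.46 RPKM in Ucp1-KO. Lpin1, a phosphatidate phosphatase and coactivator, was at 100.4 ± 10.9 and 99.9 ± 13.2 RPKM, and Esrra, the receptor ERRα, at 48.9 ± 8.95 and 58.2 ± 4.08 RPKM (SD, n = 3).

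Among 15 further genes of carnitine handling and malonyl-CoA control, 9 were above 0 and 6 below. Acsl1, which activates long-chain fatty acids, was at 541 ± 103 RPKM in WT cultures and 603 ± 185 RPKM in Ucp1-KO, and the carnitine-acylcarnitine carrier Slc25a20 was at 201 ± 34.0 and 228 ± 11.3 RPKM (SD, n = 3). Aldh9a1, an aldehyde dehydrogenase of carnitine synthesis, was at 86.8, 99.6 and 92.9 RPKM in WT and at 69.0, 85.1 and 78.9 RPKM in Ucp1-KO. Its Ucp1-KO values were all below WT (log2 difference −0.26, unadjusted p = 0.047, adjusted p = 0.868, limma).

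For ketone bodies, 4 further genes were above 0 and 5 below. Slc16a1, the transporter MCT1 that carries lactate, pyruvate and ketone bodies, was at 104, 101 and 106 RPKM in WT and at 76.5, 90.1 and 90.3 RPKM in Ucp1-KO. As for Oxct1, no culture overlapped (log2 difference −0.27, unadjusted p = 0.026, adjusted p = 0.868, limma). Hmgcs1, the cytosolic synthase of the sterol pathway, was at 154 ± 17.8 and 162 ± 33.4 RPKM (SD, n = 3).

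In the list of other acyl-CoA enzymes, 12 genes were above 0 and 7 below. Echdc1, which removes ethylmalonyl-CoA, was at 294 ± 48.8 RPKM in WT cultures and 247 ± 28.7 RPKM in Ucp1-KO, and Hibadh of valine breakdown was at 194 ± 11.2 and 190.4 ± 26.8 RPKM (SD, n = 3). Mmaa, which serves the cobalamin cofactor of the mutase, was at 6.88, 7.25 and 6.67 RPKM in WT and at 8.08, 8.20 and 8.99 RPKM in Ucp1-KO, without overlap (log2 difference 0.25, unadjusted p = 0.031, adjusted p = 0.868, limma). In the peroxisomal pathway 10 of 15 genes were above 0. Phyh, which starts the breakdown of phytanic acid, was at 185 ± 17.8 RPKM in WT cultures and 155.5 ± 32.1 RPKM in those of Ucp1-KO (SD, n = 3).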

How the data were processed

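RNA from 6 brown adipocyte cultures, 3 per genotype, had been sequenced. Genotype and culture number came from the sample labels. The design text speaks of independent cultures. Whether each came from different animals is not given in the sources used here, so that p-values measure the spread between cultures. The genes and lists were chosen with earlier results of these data known.

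The authors sequenced single reads of 50 bases, aligned them to mouse build 38, counted reads with a unique position on annotated transcripts with Genomatix software and deposited the values as RPKM. The library type does not keep the strand. CASAVA and bcl2fastq are named in the submitters' processing notes. The authors compared genotypes with their own count test in that software, which was not repeated. Fold changes and p-values of the authors were not used.

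RefSeq rows (28890 of 168326) whose mean reached 0.5 RPKM in the 6 cultures were tested (16865 rows of 12259 genes) by limma 3.58.1 in R 4.3.3 on log2(RPKM + 1), with Benjamini-Hochberg adjustment over all rows. Fold changes on this scale understate those of low genes. Ratios were compared by two-sided exact permutation tests over all splits of 3 against 3 (Python 3.11.15), adjusted over 4 ratios. Since the values were deposited as RPKM, read totals were recovered from their steps (94.44% of Ensembl values were whole within 0.1 read, and 99.994% of the RefSeq rows tested were whole in all cultures within 0.05 read), and limma-voom on these reads, which called 0 rows, was added after the data had been seen. A count of 3 reads on a transcript of 2000 bases corresponds to 0.0846 to 0.100 RPKM, which covers counting error only. The method was tested on simulated data. Positions and shared 50-base stretches came from GENCODE M21 and RefSeq (GRCm38).

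Described in full were the most abundant gene of each role, genes without overlap or with an unadjusted p under 0.05, and Cpt1b, Hadha and Hadhb. From each further list the 2 most abundant genes and the gene with the smallest p were named, except for items that are not reported here. Mlycd, Cpt1a, Etfa, Decr1, Pcca and Bdh1 were given with every value or range in addition, after their values had been seen. Nudt7, Acsm3, Slc16a3 and the single markers were also named after their values had been seen. These markers were Cfd, Cidec, Fabp4, Adipoq, Plin1, Pnpla2, Lipe, Lep, Retn, Dcn, Fn1, Pdgfra and Tnnt3. Alternatives were other minima, another constant, median-of-ratios scaling, all annotations, the lowest row per gene and leaving out each culture.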

Additional observations from a re-analysis of the deposited data

How the results depend on the processing

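No paired analysis was possible because the culture numbers are not shared between genotypes. Whether cultures of both genotypes were prepared side by side is not given in the sources used here. Under 14 alternatives the count of the 31 genes with an adjusted p under 0.05 (limma) stayed 0. Over all transcripts it was 22 in place of 0 with no minimum RPKM, and 0 of these were among the 31 genes. In place of Acad11 and Slc22a5, 1 gene had an unadjusted p under 0.05 with no minimum (Slc22a5, and 5.04% of all transcripts), with median-of-ratios scaling (Oxct1, 5.93%) and over all annotations (Acad11, 5.45%). With 1 culture left out it was 0 to 5 genes, from 0 without WT culture 11 (1.88% of all transcripts), WT culture 12 (2.61%) or Ucp1-KO culture 14 (3.57%) to 5 without Ucp1-KO culture 13 (9.14%). Without WT culture 10 and Ucp1-KO culture 13 together it was 9 (13.6%), a choice that favours higher Ucp1-KO values in these genes. Genes without overlap, 3 as reported, were 2 with median-of-ratios scaling (Oxct1 and Slc22a5, and 11.9% of all transcripts), 5 over all annotations (11.1%), 3 to 14 without 1 culture and 24 without both cultures (49.4%). With 1 culture left out they were 3 without WT culture 11 (14.4%), WT culture 12 (16.7%) or Ucp1-KO culture 14 (17.9%), 7 without Ucp1-KO culture 15 (20.5%), 11 without WT culture 10 (32.8%) and 14 without Ucp1-KO culture 13 (27.8%). The median log2 difference, 0.06, was 0.015 to 0.13 without 1 culture. It was 0.18 without both, a shift above the SD of 0.092 between cultures that the choice of these 2 cultures favours.

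Of the 31 genes, 18 kept their direction under every alternative, Acad11, Slc22a5 and Oxct1 included, and 13 did not. Reversed signs were −0.031 for Pccb over all annotations, 0.0093 for Eci2 with limma-voom, and 0.0013 for Echs1 and 0.044 for Pcca without both cultures. With 1 or both cultures left out, the ranges of the log2 difference that crossed 0 were −0.044 to 0.054 for Acad9, −0.045 to 0.12 for Acadl, −0.057 to 0.066 for Acads, −0.041 to 0.20 for Acadvl, −0.44 to 0.18 for Cpt1a, −0.014 to 0.20 for Cpt1b, −0.022 to 0.15 for Cpt2, −0.17 to 0.035 for Echs1, −0.028 to 0.21 for Hadha, −0.091 to 0.24 for Hadhb, −0.30 to 0.070 for Pcca and −0.091 to 0.15 for Pccb. The log2 difference of the ratio, with 1 culture left out, crossed 0 for Cpt1b to Cpt1a (−0.16 to 0.60) and Hadha to Hadhb (−0.067 to 0.064), whereas it was −0.34 to −0.26 for Etfa to Etfb and −0.23 to −0.014 for Pcca to Pccb. The level of Hadha over Hadhb was 1.87 per unique stretch. Where the cause is not the smaller number of cultures or rows, the cause was not tested. Bdh1 and Cpt1c had the fewest reads, and the other genes had 368 to 36482 reads per culture. The part of counting error in the spread was not tested.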
